A study of Mus musculus with 2 samples.

Results

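Insulin-like growth factor I (Igf1), its receptor (Igf1r), the insulin receptor (Insr) and 7 genes of the family of IGF binding proteins (Igfbp1 to Igfbp7) were followed in mouse kidney RNA of postnatal day 3. All probe sets annotated with 1 of these 10 symbols and no other gene were taken, which gave 28 of the 45037 probe sets on the array, and none of the probe sets annotated with several genes held any of them. One sample was kidney of the mutant strain B6C3Fe a/a-bpck, which models polycystic kidney disease (tubules widen into cysts filled with fluid), and 1 was wild-type kidney whose label names no strain. Either sample had 1 Affymetrix Mouse 430 2.0 array, so there was no replicate and no test, and the differences reported are between 2 arrays. The labels do not say which gene is mutated, how many animals gave each sample or of which sex they were. In whole kidney RNA, fewer cells of a type and less RNA per cell cannot be told apart.

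IGF-I is a secreted growth hormone-regulated peptide that signals through Igf1r, a receptor tyrosine kinase closely related to the insulin receptor. The binding proteins are secreted as well, hold IGFs away from or close to the receptor, and are opened by proteases. In the kidney the axis is known for its part in growth of the organ, glomerular filtration and compensatory enlargement.

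In the mutant array Igf1 was lower on all 4 of its probe sets, by 1.10-fold to 1.66-fold. The binding proteins Igfbp1, Igfbp2 and Igfbp3 were higher, by 1.25-fold to 1.32-fold, and Igf1r was higher on 3 of 4 probe sets above the intensity filter. Insr, Igfbp4 and Igfbp7 lay within 1.15-fold on every probe set above the filter. Igfbp6 was 1.18-fold lower, and the probe sets of Igfbp5 went opposite ways. The filter kept 24 of the 28 probe sets, those whose brighter array reached an intensity of 16.53, the median of all deposited values. Of these 24, 12 were higher and 12 lower in the mutant array, where 46.4% of the 21422 single-gene probe sets above the filter were higher and 53.6% lower. The median log2 difference was -0.00086 for the 24 and -0.016 for the 21422. Differences are mutant minus wild type throughout, so a positive value means higher in the mutant.

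At a threshold of 1.5-fold, 0 of the 24 probe sets were higher and 1, of Igf1, was lower, against a background of 2.2% higher and 3.28% lower among all single-gene probe sets above the filter. At 1.2-fold, 6 were higher (25%) and 3 lower (12.5%), against 10.4% and 13.9% of all. Setting the array medians equal turned this background to 16.3% higher and 9.49% lower, and gave 7 higher and 3 lower among the 24. The lower share was therefore near the background with either scaling. Bright probe sets differ less between the arrays than dim ones. Of the 18 with a brighter array at or above 83.51, the 75th percentile of all values, 4 were higher (22.2%) and 2 lower (11.1%) by 1.2-fold or more, against 6.56% and 5.87% of all probe sets as bright. The 24 probe sets were designed on 18 source sequences, so those of 1 gene are not independent readings.

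**Figure D1:**
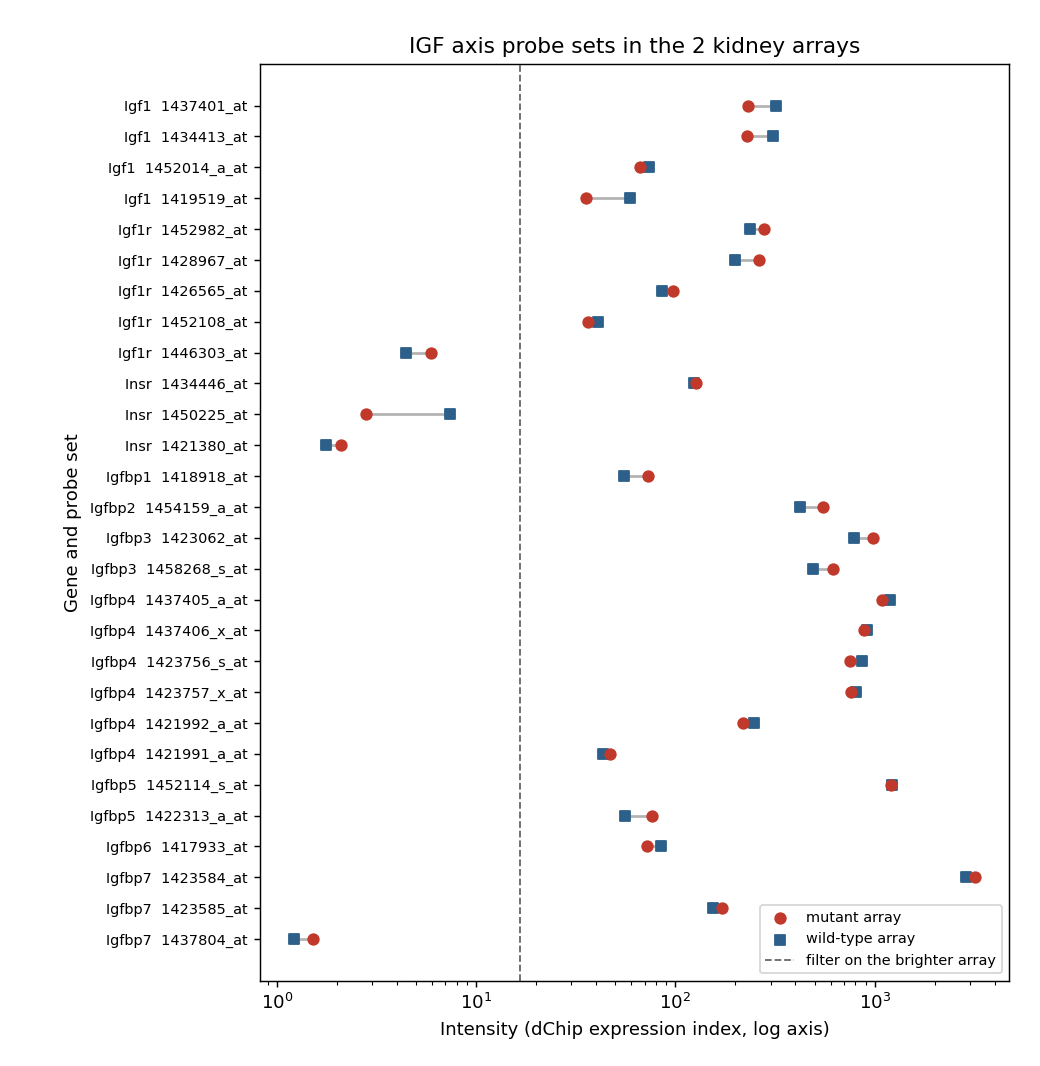
Intensity on a log axis of all 28 probe sets of the 10 genes, with a red circle for the mutant array, a blue square for the wild-type array and a dashed line at the filter of 16.53. The 4 Igf1 circles lie left of their squares, and the circles of Igfbp1, Igfbp2 and Igfbp3 lie right of theirs.

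The promoters of the genes that stood farthest apart on their brightest probe set are shown so that their starts can be compared: Igfbp1, Igfbp2 and Igfbp3, higher in the mutant array, and Igf1, lower. RefSeq windows (build GRCm38.p6) were found for 9 of the 10 genes, all but Insr, and each is cut to the 250 bases before the annotated start, read in the direction of transcription. Igfbp1 lies at chr11:7197537-7197786 on the plus strand, Igfbp2 at chr1:72824230-72824479 on the plus strand, Igfbp3 at chr11:7213924-7214173 on the minus strand and Igf1 at chr10:87860861-87861110 on the plus strand. For Igfbp3 and Igf1 the start used by this table lies inside the annotated span of the gene. Capitals mark CAAAACA, a core of the insulin response element bound by FoxO factors, GTTAAT, part of the site of the hepatocyte nuclear factor Hnf1, TATAAA, the TATA box, and GGGCGG, the GC box bound by Sp1, searched on both strands.
Igfbp1: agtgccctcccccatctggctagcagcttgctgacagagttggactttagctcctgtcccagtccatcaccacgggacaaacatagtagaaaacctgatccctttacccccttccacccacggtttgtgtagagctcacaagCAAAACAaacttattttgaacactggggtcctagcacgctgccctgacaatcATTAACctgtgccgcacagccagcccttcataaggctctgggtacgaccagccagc
Igfbp2: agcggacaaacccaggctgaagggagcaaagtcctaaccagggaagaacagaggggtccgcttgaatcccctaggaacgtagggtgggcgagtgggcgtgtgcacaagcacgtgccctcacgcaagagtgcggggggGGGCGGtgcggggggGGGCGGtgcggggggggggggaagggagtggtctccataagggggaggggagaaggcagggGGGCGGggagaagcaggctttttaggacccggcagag
Igfbp3: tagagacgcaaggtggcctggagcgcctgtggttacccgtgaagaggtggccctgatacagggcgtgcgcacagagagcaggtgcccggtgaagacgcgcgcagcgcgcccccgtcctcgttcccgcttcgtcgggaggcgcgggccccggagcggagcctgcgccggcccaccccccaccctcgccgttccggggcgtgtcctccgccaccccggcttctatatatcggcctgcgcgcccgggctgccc
Igf1: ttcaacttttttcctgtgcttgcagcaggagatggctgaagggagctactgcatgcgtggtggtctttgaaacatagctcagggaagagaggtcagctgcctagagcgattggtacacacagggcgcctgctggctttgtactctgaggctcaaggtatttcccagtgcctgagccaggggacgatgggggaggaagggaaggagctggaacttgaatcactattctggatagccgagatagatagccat
Among the 10 windows of the 9 genes, CAAAACA was found in that of Igfbp1 alone, at -108 to -102 from the start, and GTTAAT in the same window alone, on the other strand at -56 to -51. These motifs occur in 5.56% and 6.43% of 32851 RefSeq promoter windows cut in the same way. The printed Igfbp2 window held 3 GC boxes, and those of Igf1r and Igfbp7 held 2 and 4, a motif found in 32.7% of all windows. TATAAA occurred in the window of Igfbp4, at -28 to -23, and in 12.4% of all windows. In the window of Igfbp6 it lay on the other strand and farther from the start, at -148 to -143. No searched motif overlapped another, and the Igfbp3 and Igf1 windows held none of these letters. A match is a run of letters and was not measured as a binding site.

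Igf1, the ligand, is on chromosome 10 (87858265 to 87937047, GRCm38.p6). Its brightest probe set, 1437401_at, read 229.9 in the mutant array and 321 in the wild-type array, 1.40-fold lower (log2 difference -0.48). The next, 1434413_at, read 227.8 in mutant and 308 in wild type, 1.35-fold lower (-0.43). Both lie above the 75th percentile of values. Of the dimmer pair, 1419519_at read 35.6 in the mutant array against 59.2 in the wild-type array, 1.66-fold lower (-0.73), and 1452014_a_at read 66.7 in mutant against 73.5 in wild type, 1.10-fold lower (-0.14). The 4 probe sets thus shared a direction, but their sizes ranged over 0.59 on the log2 scale, with an SD between probe sets of 0.24. For comparison, 5269 genes had more than 1 probe set that passed, their median SD was 0.13 and the 95th percentile 0.47, and in 51.6% of them all probe sets went 1 way. These genes were pooled whatever their number of probe sets, so the share is not matched to the 4 of Igf1.

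The authors' deposited table gives bounds for each fold that come from the probes of the 2 arrays and hold no variation between animals. In the authors' deposited table the fold of 1419519_at was -1.66 with bounds of -1.55 and -1.78, where a negative fold means lower in the mutant. The file header names a criterion of a lower bound above 1.5-fold and a difference above 20. Applied to the deposited columns, it was met by 256 of 45037 probe sets (0.568%), where the file states 354, and by 1 probe set of the 10 genes, 1419519_at of Igf1.

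Igf1 is made mainly by liver and, within organs, by stromal and other cells, so marker lists of those tissues are given beside it. Stromal markers were lower for 8 of 11 genes, with a median of -0.15, and their intensities summed to 7603 in the mutant array and 7893 in the wild-type array. Liver genes were higher for 5 of 8, with a median of 0.30, although their sum was 3243 in the mutant array and 3837 in the wild-type array. Of all 13149 genes above the filter, 48% were higher and 51.9% lower. Ahsg, 1 of the 5 liver genes, passed the filter of 16.53 through the mutant array alone, with 26.6 there and 7.45 in wild type. None of the stromal and liver markers was under the floor of 4.2 in either array. Their part in the lower Igf1 was not tested.

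Igf1r, the receptor for both IGFs, is on chromosome 7 (67952257 to 68233668). Its 2 brightest probe sets read 279.8 and 262 in the mutant array, against 236.5 and 198.5 in the wild-type array. They were 1.18-fold and 1.32-fold higher (log2 differences 0.24 and 0.40) and share 1 source sequence. The other pair, also designed on 1 shared sequence, split: 1426565_at read 96.9 in mutant and 85.2 in wild type, 1.14-fold higher, and 1452108_at read 36.3 in mutant and 40.8 in wild type, 1.12-fold lower. The receptor was thus higher on its 3 bright probe sets and lower on the dim one. The remaining probe set, 1446303_at, stayed below the filter with 5.93 in mutant and 4.45 in wild type.

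Insr, the insulin receptor, is on chromosome 8 (3150922 to 3279649) and had 1 probe set above the filter, which read 126.7 in mutant and 124.4 in wild type, within 1.02-fold. Its other probe sets were too dim to compare. 1450225_at read 2.81 in mutant and 7.37 in wild type, and 1421380_at read 2.1 in mutant and 1.77 in wild type. On its 1 bright probe set the insulin receptor was level between the arrays.

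Igfbp1 and Igfbp3 are neighbours on chromosome 11, with 3539 bases and no other annotated gene between them. Igfbp1 encodes a small binding protein that insulin represses in liver and that carries an integrin-binding motif, and its 1 probe set read 72.7 in the mutant array and 54.9 in the wild-type array, 1.32-fold higher (0.40). Igfbp3 encodes the main IGF carrier of serum. Its probe sets read 978 and 618 in the mutant array, against 785 and 487.5 in the wild-type array. Both were higher, by 1.25-fold and 1.27-fold (0.32 and 0.34), with an SD between them of 0.018.

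Igfbp2 and Igfbp5 are neighbours on chromosome 1, with 5590 bases and no other annotated gene between them. Igfbp2, a binding protein abundant in fetal tissues that also carries an integrin-binding motif, had 1 probe set, at 549 in the mutant array and 419 in the wild-type array, 1.31-fold higher (0.39). Igfbp5, which binds the extracellular matrix, gave no single answer. Its bright probe set, 1452114_s_at, read 1204 in mutant and 1227 in wild type, within 1.02-fold (-0.027, and 0.046 with array medians set equal). Its dim one, 1422313_a_at, read 76.4 in mutant and 56.1 in wild type, 1.36-fold higher (0.44), which was the largest positive difference of the 24. The SD between the pair was 0.33. In contrast to Igfbp1 and Igfbp3, the 2 genes of this pair were therefore not alike on their brightest probe sets.

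In 9 probe sets of the 10 genes the brighter array reached 500, a level chosen after the values were seen. Of these, 3 were at least 1.2-fold higher, those of Igfbp2 and Igfbp3, and 0 at least 1.2-fold lower, against 4.94% and 2.49% of 2085 probe sets as bright. The Igfbp2 probe set (549 in mutant, 419 in wild type) and 1458268_s_at of Igfbp3 (618 in mutant, 487.5 in wild type) reached 500 in the mutant array alone. The level thus let them in through the array in which they were higher, and no conclusion is drawn from this count.

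**Figure D2:**
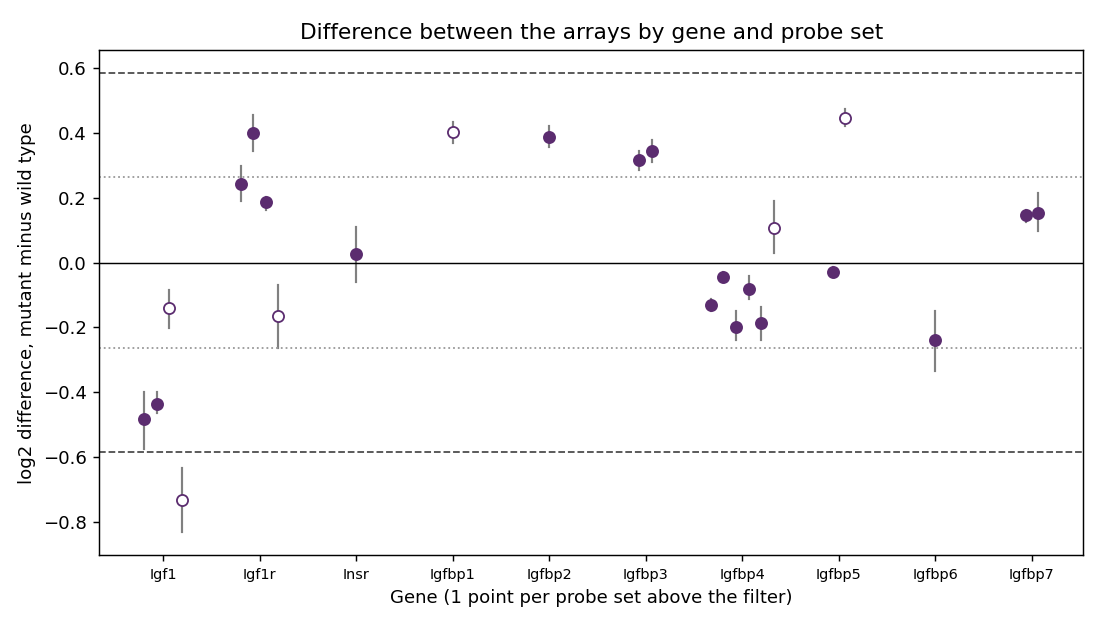
Log2 difference, mutant minus wild type, of the 24 probe sets above the filter by gene, filled where the brighter array reached 83.51. Vertical bars are the authors' deposited fold bounds, which hold probe error only, dotted lines mark 1.2-fold and dashed lines 1.5-fold. Igf1 lies below 0 on all 4 probe sets, and only 1 of them passes 1.5-fold.

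Igfbp4, an inhibitory binding protein cleaved by the protease PAPP-A, is on chromosome 11 (99040005 to 99052655) and had 6 probe sets. The brightest read 1087 in mutant and 1191 in wild type, 1.10-fold lower (-0.13). Over the 6 the differences ran from -0.20 to 0.11, 5 of them negative, and the positive one was the dimmest, with 46.7 in mutant and 43.4 in wild type. Its differences were small on every probe set, with an SD of 0.11.

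Igfbp6, which prefers IGF-II, is on chromosome 15 (102144186 to 102149512). Its 1 probe set read 71.9 in mutant and 84.8 in wild type, 1.18-fold lower (-0.24). Igfbp7, a family member of low IGF affinity known in vessels and as a urinary marker of stressed tubules, is on chromosome 5 (77349240 to 77408045). Its brightest probe set read 3175 in mutant and 2868 in wild type, and the next read 172 in mutant and 155 in wild type. Both were 1.11-fold higher, with an SD between them of 0.0049. The remaining probe set was below the filter, at 1.52 in mutant and 1.22 in wild type. Endothelial markers, set beside Igfbp7, were lower for 7 of 10 genes, where 51.9% of all 13149 genes above the filter were lower. The median of the markers was -0.16, their sums were 1855 in mutant and 2025 in wild type, and none was under the floor. Their part in the Igfbp7 difference was not tested.

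**Figure D3:**
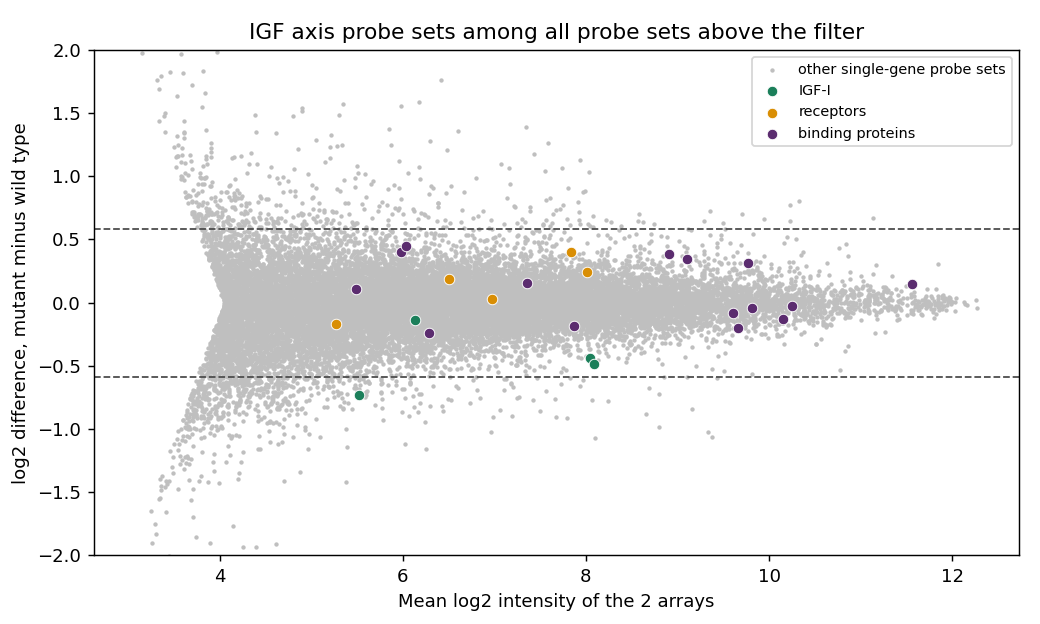
Log2 difference against mean log2 intensity for the 21422 single-gene probe sets above the filter (grey), with Igf1, the receptors and the binding proteins in colour and dashed lines at 1.5-fold; 37 probe sets lie beyond the vertical axis. The grey cloud narrows with intensity, and Igfbp2 and Igfbp3 lie in its upper part at the bright end.

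The remaining genes of the pathway were read from 6 lists of 68 genes, each gene by its brightest probe set. Of these, 57 passed the filter, 9 did not and 2, Rheb and Sesn1, had no probe set of their own. The 57 divided into 29 higher and 28 lower, where 48% of all 13149 genes were higher and 51.9% lower. Their median was 0.0049, beside -0.0081 over all genes. At least 1.5-fold apart were 4 higher (7.02%) and 1 lower (1.75%), against 2.02% and 2.58% of all genes. The 4 were Stc1, Ccn1, Irs2 and Pik3cb, and the lower one was G6pc. Pik3cb passed the filter of 16.53 through the mutant array alone, with 23.1 there and 15.2 in the wild-type array. The lists were chosen with earlier results of these data known, so these shares are not independent support for a difference.

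Ligands and other receptors lay within 1.10-fold on their brightest probe sets, with 1 of 4 higher and 3 lower. Igf2, the fetal growth factor, read 621 in mutant and 640.0 in wild type, and Igf2r, which clears it, read 291 in mutant and 297 in wild type. Ghr, the growth hormone receptor, read 689.6 in mutant and 754 in wild type (-0.13), but its 3 probe sets ranged from -0.43 to 0.53. Igfals, the subunit that joins Igfbp3 in serum, read 20.1 in mutant and 18.7 in wild type. Ins1, Ins2 and Insrr stayed below the filter.

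Among proteases of the binding proteins and their inhibitors, 5 of 7 genes were higher by any amount, where 48% of all 13149 genes were higher. Only 1 of the 7, Stc1, was at least 1.2-fold apart on its brightest probe set. Stc1, a stanniocalcin that inhibits PAPP-A, read 126.7 in mutant and 66.8 in wild type, 1.90-fold higher (0.92). The brightest probe set of its relative Stc2 read 28.1 in mutant and 25.8 in wild type, 1.09-fold higher. Pappa, the gene of that protease, read 33.2 in mutant and 31.4 in wild type on its brightest probe set, and its 3 probe sets ranged from -0.66 to 0.078. Pappa2 was 1.13-fold lower, with 65.4 in mutant and 73.6 in wild type. Of the list of secreted proteins related to the binding proteins 3 of 6 genes were higher. Ccn1, a matricellular protein, read 376 in mutant and 183 in wild type, 2.05-fold higher, and Ccn3, of the same family, read 53.5 in mutant and 71.5 in wild type, 1.34-fold lower.

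Receptor adaptors were 5 higher and 4 lower. Irs2, which docks signalling proteins on both receptors, read 109 in mutant and 72.2 in wild type, 1.51-fold higher on its 1 probe set. Irs1 was 1.08-fold higher, with 263 in mutant and 244.5 in wild type, and Grb10, an imprinted inhibitor of both receptors, read 959 in mutant and 955.5 in wild type. Sh2b2 was 1.13-fold lower, with 40.4 in mutant and 45.7 in wild type. The kinases downstream were 9 higher and 11 lower. Pik3cb, a catalytic subunit, was dim, with 23.1 in mutant and 15.2 in wild type, 1.52-fold higher. Pik3r1, the regulatory subunit, was 1.32-fold lower, with 261 in mutant and 343 in wild type, but its 4 probe sets ranged from -0.40 to 0.12. Akt1 lay within 1.02-fold, with 524 in mutant and 534 in wild type.

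In the list of FoxO factors and their targets 6 genes stood higher and 5 lower, the median being 0.018. G6pc, the last enzyme of glucose production, read 317 in mutant and 625 in wild type, 1.98-fold lower, and Pck1, an earlier enzyme of that path, read 640.1 in mutant and 842 in wild type, 1.32-fold lower. Like Igfbp1 and Irs2, both are insulin-repressed FoxO targets in liver. In these arrays the 4 genes did not share a direction, Igfbp1 and Irs2 being higher and G6pc and Pck1 lower.

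**Figure D4:**
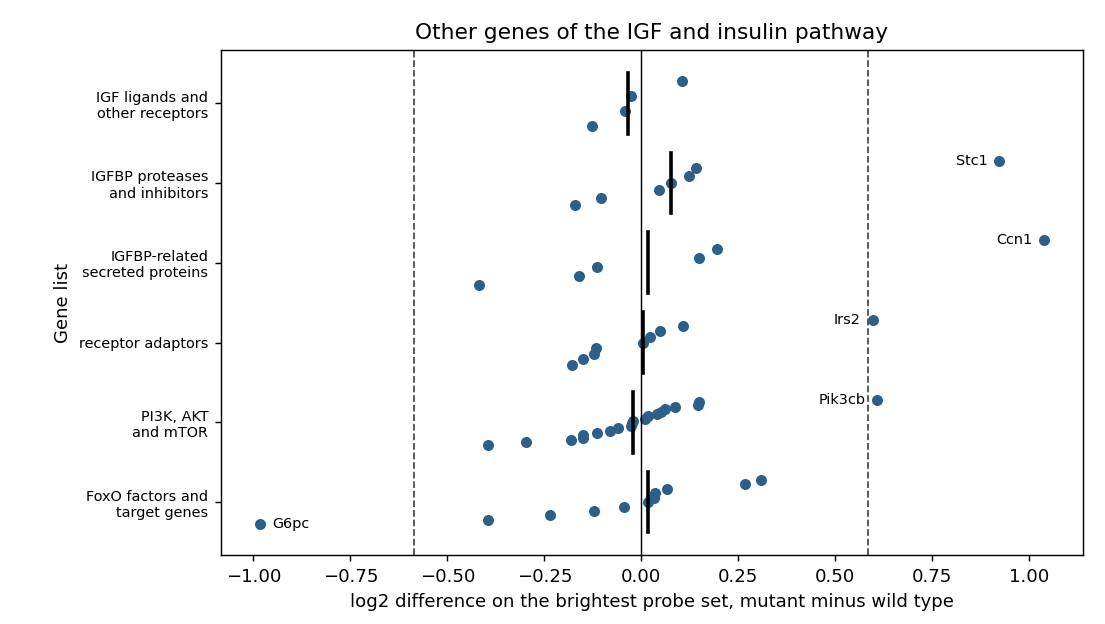
Log2 difference, mutant minus wild type, of the 57 other pathway genes above the filter on their brightest probe set, 1 point per gene, with a black bar at the median of each list and dashed lines at 1.5-fold. The 5 genes past 1.5-fold are named, and the medians lie between -0.035 and 0.078.

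The arrays also differed in other markers, which stand beside every value above. Markers of kidney cells were present in both, with all 8 podocyte, 8 proximal tubule and 8 collecting duct genes above the filter. Counted at any size of difference, podocyte genes were lower for 8 of 8, with a median of -0.44. Proximal tubule genes were higher for 5, with a median of 0.29, and collecting duct genes for 6, with a median of 0.27. Of all 13149 genes above the filter, 48% were higher and 51.9% lower by any amount. Nephron progenitor genes were higher for 4 of 6, macrophage genes for 7 of 8 and adipose genes for 3 of 5. Gdnf of the nephron progenitor list, and Cidea and Cfd of the adipose list, passed the filter of 16.53 through the mutant array alone. Each of them was thus bound to be higher, and no conclusion is drawn from the nephron progenitor and adipose counts. Adrenal genes were lower for all 7 above the filter, their sum being 49.9 in mutant and 608 in wild type. Hsd3b1, Cyp11b1 and Chga were under the floor in the mutant array. All 7 passed the filter of 16.53 through the wild-type array alone, so each was bound to be lower, and no conclusion is drawn from their count. Below the filter, Cyp11a1 read 9.7 in mutant and 5.69 in wild type, and Cyp21a1 read 10.1 in mutant and 14.2 in wild type. Xist, the RNA of the inactive X chromosome, read 1113 in mutant and 4.67 in wild type. The 4 Y-linked genes were lower in mutant, by 4.38-fold to 4.93-fold on their brightest probe sets. Other probe sets above the filter reached log2 differences of -1.70 for Uty and -2.40 for Ddx3y. On the brightest probe sets 3 of the 4 stayed above the filter in the mutant array. Ddx3y read 84.2 in mutant and 394 in wild type, Eif2s3y 63.8 in mutant and 279.7 in wild type, and Uty 25.8 in mutant and 125.7 in wild type. The mutant array thus held both Xist and Y-linked signal, and sex-linked expression and genotype cannot be told apart. The part of these cell types and of sex in the differences of the IGF genes was not tested. Intensities summed to 5175900 in the mutant array and 5173132 in the wild-type array.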

How the data were processed

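Per the labels, total RNA of 1 mutant and 1 wild-type kidney sample was labelled with biotin from 100 ng and hybridised to 1 Affymetrix Mouse 430 2.0 array each. The authors deposited 1 intensity per probe set on a linear scale, an index from dChip (version of December 2010, per the series' design text). Per the file headers, control probe sets were left out, and a signed fold score with bounds was given. For background subtraction, array scaling and genome build, the method is not given in the sources used here. The difference of means, another deposited column, was not used. Both deposited files held equal intensities in all 45037 probe sets.

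Intensities were used as deposited. Values were floored at the 20th percentile (4.2) and put on a log2 scale, and wild type was subtracted from mutant. Probe sets were kept if their brighter array reached the median (16.53), and genes were represented by their probe set of highest mean log2. Symbols were updated through the RefSeq gene table (GRCm38.p6), which also gave positions, while G6pc was matched by its older symbol. Counts at 1.2-fold, 1.5-fold and 2-fold were set against all single-gene probe sets, with no test, since the number of arrays limits the precision. The computation was tested on simulated data. It used Python 3.11.15, numpy 2.4.6 and pandas 2.3.3.

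Named were all 10 genes, 10 others whatever their values (Igf2, Igf2r, Ghr, Igfals, Pappa, Stc2, Irs1, Irs2, Akt1 and Grb10), and of each pathway list the genes past 1.5-fold and the 2 with the largest absolute difference. Marker lists are given as counts. The few markers named, and Ins1, Ins2, Insrr, Adam28, Htra1, Rheb and Sesn1, fall outside this rule and were chosen after their values were seen. The genes and lists were chosen with earlier results of these data known.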

Additional observations from a re-analysis of the deposited data

How the results depend on the processing

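With no replicates, a value was taken as moved when it shifted by more than 0.13 on the log2 scale, the median SD between probe sets of 1 gene. No paired analysis was possible because each group had 1 array. Over 7 alternatives, 9 of the 10 genes kept the direction of their brightest probe set. Their log2 differences ranged from -0.49 to -0.41 for Igf1, from 0.17 to 0.32 for Igf1r, from 0.36 to 0.46 for Igfbp2 and from 0.29 to 0.39 for Igfbp3. Igfbp1 was 0.27 with a pseudocount of 32 in place of the floor, a construction that shrinks dim differences. Igfbp5 was 0.046 with array medians set equal and 0.21 as the mean of its probe sets. The median of the 24 probe sets, -0.00086, was 0.072 with array medians set equal and 0.15 without the suffixes _x_at, _s_at and _a_at, which removes 11 of the 24: all 6 of Igfbp4, both of Igfbp5, the only one of Igfbp2 and 1 each of Igf1 and Igfbp3. With array medians set equal the median of the ligand list was 0.038 and that of the kinase list 0.051, both below 0 as deposited. The adaptor list, 0.0049 as reported, had -0.056 with no filter on low values. The count at least 1.5-fold lower, 1, was 0 with the pseudocount, 0 with the filter at the 75th percentile, 2 with no filter, 3 at 1.2-fold and 0 at 2-fold, and the count higher, 0, was 6 at 1.2-fold. With no filter on low values the median of all 28 probe sets and that of the list of related secreted proteins were 0, with no direction. The remaining 97 values under the alternatives kept their direction and shifted by less than 0.13, or, for counts, did not shift. Among the 97 are those from alternatives that could not change them. Dim probe sets depend on a background subtraction that could not be checked, and no value holds variation between animals.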

Other observations

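Below the filter, Ins1 read 9.73 in the mutant array and 2.65 in the wild-type array, and Adam28, a protease that cleaves Igfbp3 in human cells, read 2.53 in mutant and 10.7 in wild type. The probe sets of Ghr split: the brightest was 1.09-fold lower, the next was 1.44-fold higher, with 224 in mutant and 156 in wild type, and the dimmest was 1.35-fold lower, with 21.6 in mutant and 29.0 in wild type. For Stc2 the 3 probe sets ranged from 0.12 to 0.74, and for Htra1, a secreted serine protease, the brightest stood at 0.046 and the other at -0.45. Both Ccn1 probe sets above the filter were higher, at 1.04 and 1.13 on the log2 scale.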
